A study of Homo sapiens with 12 samples.

Results

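hsa-miR-101-3p and hsa-miR-128-3p (miR-101-3p and miR-128-3p below) are mature human microRNAs that are each made from 2 hairpins on different chromosomes. They were taken by name from 12 tables of newly made microRNA in Huh7 cells, a human hepatocellular carcinoma line, and are 2 of the 2652 mature microRNAs those tables list. The pair was selected on its read levels, multi-mapping counts and T>C conversions in these same libraries, so all of these values are descriptive and carry no test. Tests are given for the other strands of the hairpins and for other listed microRNAs.

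The experiment was SLAMseq of small RNA. Cells take up 4-thiouridine (4SU), and RNA made while it is present shows T>C conversions in the reads after chemical treatment. Control cells received DMSO without 4SU, DMSO cells received DMSO with 500 µM 4SU, and PlaB cells received pladienolide B with 500 µM 4SU, each for 4 h. All cells were wild-type Huh7 with no genetic change described, and PlaB inhibits the SF3B1 subunit of the spliceosome. Its concentration is 500 µM in the labels but 1 µM in the methods. There were 4 independent experiments (replicates 1 to 4), each with 1 sample per condition, called a library below. DMSO replicates 1 and 2 combine 3 sequencing runs, of the original, a newly prepared and a re-amplified library. No Control or PlaB sample was treated in this way, so part of the DMSO group differs in preparation from both other conditions. A 4 h pulse measures new mature strands together with any loss of them, and in bulk RNA fewer producing cells and less RNA per cell cannot be told apart.

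A microRNA gene is transcribed as part of a longer RNA, cut by Drosha to a hairpin and by Dicer to a duplex, and 1 strand of the duplex is kept by Argonaute as the guide. The guide pairs with target mRNAs mainly through its seed, bases 2 to 8. miR-101 is known for repression of the histone methyltransferase EZH2 and is often low in liver cancer. miR-128 is abundant in brain, and its targets include the Polycomb gene BMI1. Both are commonly described as tumour suppressors.

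The mature sequences, from RefSeq, are shown because their seeds and T content decide how they are told from their relatives and how many positions can convert. Capitals mark bases 2 to 8.
miR-101-3p: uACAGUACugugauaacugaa
miR-144-3p: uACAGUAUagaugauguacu
miR-128-3p: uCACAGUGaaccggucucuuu
miR-27a-3p: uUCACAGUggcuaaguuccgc
miR-27b-3p: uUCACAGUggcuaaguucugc
miR-101-3p and miR-144-3p share bases 2 to 7, ACAGUA. Bases 1 to 7 of miR-128-3p, UCACAGU, are bases 2 to 8 of miR-27a-3p and miR-27b-3p, so this family is shifted by 1 base. miR-101-3p holds 6 U and miR-128-3p holds 7.

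The 4 hairpins are shown because their 3p arms are the same within a pair while their 5p arms differ. Capitals mark the 2 mature arms, 5p first.
MIR101-1: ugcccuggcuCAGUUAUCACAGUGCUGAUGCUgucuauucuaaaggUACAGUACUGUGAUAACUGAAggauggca
MIR101-2: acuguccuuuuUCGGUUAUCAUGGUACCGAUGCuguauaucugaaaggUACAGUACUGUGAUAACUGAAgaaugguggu
MIR128-1: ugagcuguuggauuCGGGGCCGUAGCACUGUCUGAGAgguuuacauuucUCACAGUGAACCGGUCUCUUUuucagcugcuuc
MIR128-2: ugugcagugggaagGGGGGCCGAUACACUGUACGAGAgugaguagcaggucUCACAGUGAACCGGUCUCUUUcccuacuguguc
In GRCh38.p14 (RefSeq) they lie at chr1:65058434-65058508 (minus strand), chr9:4850297-4850375 (plus), chr2:135665397-135665478 (plus) and chr3:35744476-35744559 (plus), in the order printed. In GENCODE version 44 every one is intronic and on the strand of its host. MIR101-1 lies in introns of 8 transcripts of JAK1, which encodes a cytokine receptor kinase, and none of these is the canonical one. The study's own annotation does not list JAK1 and gives an uncharacterised locus beside RCL1 for the pair, likewise as intronic. MIR101-2 lies in intron 8 of 8 of the canonical transcript of RCL1, a gene of ribosomal RNA processing. MIR128-1 lies in intron 19 of 26 of R3HDM1, and MIR128-2 in intron 19 of 20 of ARPP21, a gene expressed mainly in brain.

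Each 21-base guide matched GRCh38 exactly at 2 places, its own loci. With 1 genomic base added at its 3′ end, miR-128-3p matched 1 place, whereas miR-101-3p needed 2 added bases. Reads that the authors mapped to more than 1 place made up 89.0 to 96.7% of miR-101-3p reads and 86.3 to 88.6% of miR-128-3p reads in the 12 libraries. The spread was wider for miR-101-3p, in which Control replicate 2 and DMSO replicates 1 and 2 were lowest (89.1, 89.5 and 89.0%) and the other 9 libraries lay above 92%. The multi-mapping count was an even number in 12 of 12 libraries for miR-128-3p and in 10 of 12 for miR-101-3p. Among other microRNAs of 2 loci it was even in between 6 of 12 and 12 of 12 libraries. Whether multi-mapping reads were counted once per locus is thus not settled. If such reads are halved, 3856 to 11723 miR-128-3p reads and 3164.5 to 7663 miR-101-3p reads remain per library. The counts as deposited are used below, and their levels should not be set against microRNAs of 1 locus.

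**Figure D1:**
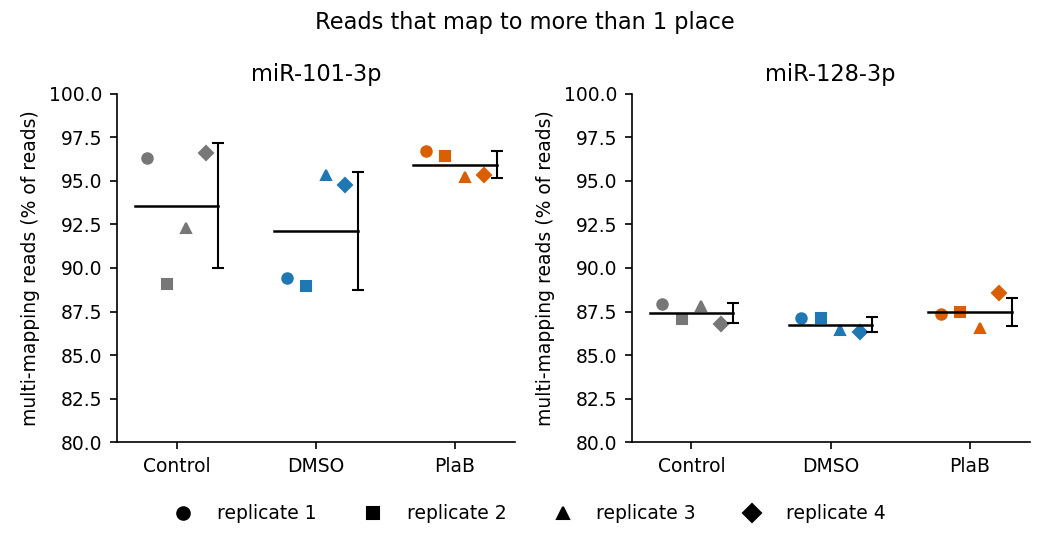
Reads mapping to more than 1 place, as percent of the reads of miR-101-3p (left) and miR-128-3p (right), by condition, on an axis that starts at 80%. Points are libraries, lines are means and bars are SD (n = 4); the libraries lie at 89.0 to 96.7% for miR-101-3p and at 86.3 to 88.6% for miR-128-3p.

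The libraries held 1522210 to 3880241 reads on mature microRNAs, and the PlaB libraries (median 1752379.5) were smaller than the DMSO libraries (median 2652915.5). The 4 hepatocyte microRNAs listed as markers summed to between 113602 and 161032 CPM (reads scaled to one common total of microRNA reads per library). The blood, neuron and muscle lists stayed at or below 56.9 CPM in every library, and muscle miR-206 had 0 reads.

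miR-101-3p was read at overlapping levels in the 3 conditions. It was read at 4205, 5060, 4448 and 3939 CPM in Control replicates 1 to 4. In DMSO it was read at 3291, 4213, 4148 and 4178 CPM, and in PlaB at 4963, 4711, 3790 and 3461 CPM. The condition means were 4413 ± 479, 3957 ± 445 and 4231 ± 720 CPM (SD, n = 4), and the 3 conditions overlapped. DMSO replicate 1 was the lowest library and stood apart from the other DMSO libraries.

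miR-128-3p varied less. Control libraries held 4530, 4783, 4971 and 4723 CPM, with a mean of 4752 ± 181 CPM (SD, n = 4). DMSO libraries held 5354, 5092, 4657 and 4724 CPM (4957 ± 326), and PlaB libraries held 4497, 4779, 4327 and 4865 CPM (4617 ± 249). These groups overlapped as well. The ratio of the highest to the lowest library was smaller than for miR-101-3p.

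The fitted read changes of both guides were small. For miR-101-3p the log2 fold change was -0.13 ± 0.15 (SE) in DMSO against Control, 0.08 ± 0.15 in PlaB against DMSO and -0.05 ± 0.15 in PlaB against Control. For miR-128-3p the same 3 values were 0.08 ± 0.09, -0.11 ± 0.09 and -0.03 ± 0.09. Over the 537 microRNAs tested for reads, the median log2 fold changes were 0.04, -0.05 and 0.01. In DMSO against Control 5.03% were called lower and 0.931% higher (edgeR, adjusted p under 0.05), and in PlaB against DMSO 0.372% were called lower. In PlaB against Control 6.33% were called lower. With the experiment as a block, the calls in either direction went from 32 to 60 and from 2 to 6.

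**Figure D2:**
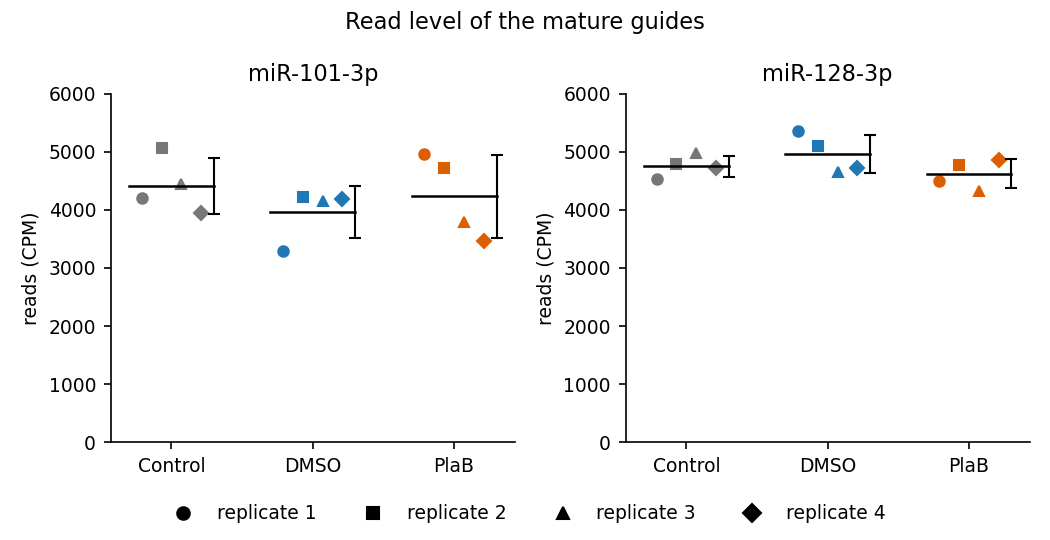
Read level (CPM) of miR-101-3p (left) and miR-128-3p (right) in the 12 libraries, by condition. Points are libraries, lines are means and bars are SD (n = 4); the 3 conditions overlap in both panels, between 3291 and 5354 CPM over all points.

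The reads that map to 1 place, a minority, spread differently for the 2 guides. For miR-128-3p they stayed between 546 and 689 CPM in all 12 libraries. For miR-101-3p they ran from 134 to 552 CPM, at 155, 552, 342 and 134 CPM in Control, 347, 465, 194 and 219 CPM in DMSO and 162, 168, 181 and 162 CPM in PlaB. The higher DMSO values were those of replicates 1 and 2, which combine reads of original, re-prepared and re-amplified libraries. DMSO replicates 3 and 4, at 194 and 219 CPM, lay nearer the PlaB values of 162 to 181 CPM. Control values, from 134 to 552 CPM, spanned both. No share over all microRNAs was counted for these reads, and they were examined after seeing the data. Fitted on these reads alone, the log2 fold change of miR-101-3p in PlaB against DMSO was -0.83, against 0.08 for all reads, and that of miR-128-3p in DMSO against Control was 0.20.

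T>C conversions rose far above the unlabelled level in DMSO for both guides. A rate is the share of covered T positions read as C, and the depth behind it was 36185 to 82670 positions per library for miR-101-3p and 47309 to 143556 for miR-128-3p. For miR-101-3p the Control rates were 0, 0.0193, 0.0228 and 0.0142%, where 0 of 42059 positions in replicate 1 allows up to 0.00713%. That bound would be higher, and the depth lower, if multi-mapping reads were counted at each locus. In DMSO the rates were 0.514, 0.543, 0.569 and 0.402% and in PlaB 0.0706, 0.168, 0.177 and 0.0681%. The 3 conditions did not overlap, and the means were 0.0141 ± 0.0100, 0.507 ± 0.0737 and 0.121 ± 0.0597% (SD, n = 4). Among PlaB libraries, replicates 2 and 3 were more than 0.1% and replicates 1 and 4 less.

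For miR-128-3p the Control rates were higher, at 0.0518, 0.0291, 0.0241 and 0.0398%, with a mean of 0.0362 ± 0.0123% (SD, n = 4). The DMSO rates were 0.198, 0.236, 0.355 and 0.268% (0.264 ± 0.0670%). The PlaB rates were 0.0465, 0.0628, 0.0797 and 0.0702% (0.0648 ± 0.0140%). PlaB replicate 1 lay below Control replicate 1, so PlaB overlapped the unlabelled libraries, and both lay below every DMSO library. Reads with at least 1 conversion were 1.60% of all DMSO reads pooled and 0.449% of PlaB reads, against 2.83 and 0.664% for miR-101-3p.

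On the log2 scale, the fitted rate of miR-101-3p was 5.09 ± 0.39 (SE) higher in DMSO than in Control and 3.03 ± 0.38 higher in PlaB than in Control. In PlaB against DMSO its log2 fold change was -2.06 ± 0.32, or 4.18-fold lower. For miR-128-3p the corresponding values were 2.87 ± 0.32, 0.85 ± 0.33 and -2.02 ± 0.31, the last of which is 4.05-fold lower. Over the 239 microRNAs tested for conversions, 80.8% were called higher in DMSO than in Control, 36.8% lower in PlaB than in DMSO and 53.1% higher in PlaB than in Control. Against Control, 0.418% were called lower in DMSO and 0.418% in PlaB. The libraries did not overlap in these directions for 61.9, 38.1 and 32.6%. The median log2 fold changes were 3.67, -1.22 and 2.30, in the order DMSO against Control, PlaB against DMSO and PlaB against Control.

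**Figure D3:**
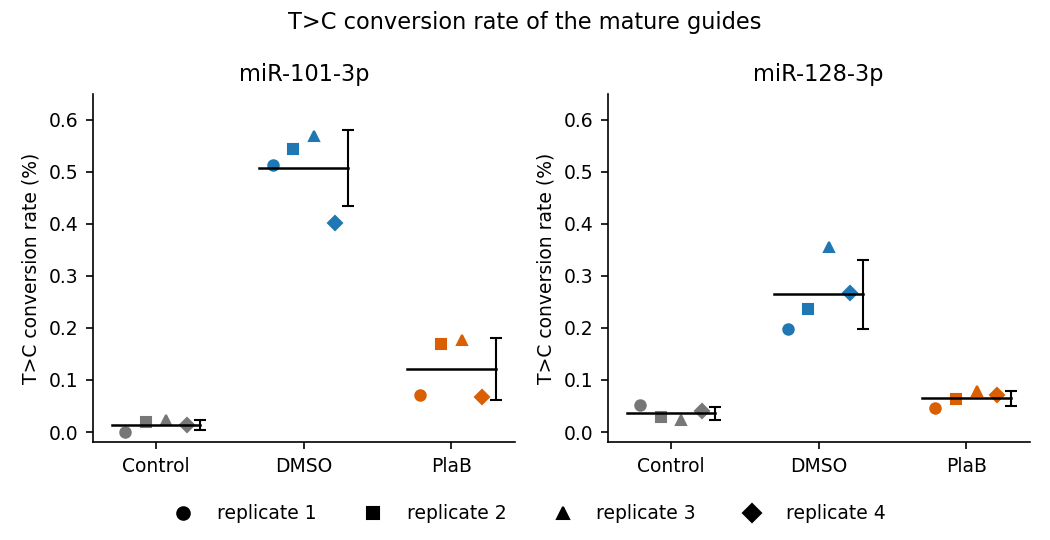
T>C conversion rate (% of covered T positions) of miR-101-3p (left) and miR-128-3p (right) in the 12 libraries, on the same axis. Points are libraries, lines are means and bars are SD (n = 4); DMSO stands above Control and PlaB in both, at 0.402 to 0.569% for miR-101-3p and 0.198 to 0.355% for miR-128-3p.

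In the same library, the rate of miR-101-3p was above that of miR-128-3p in 4 of 4 DMSO libraries, by 0.134 to 0.316 percentage points. It was above in 3 of 4 PlaB libraries and in 0 of 4 Control libraries. Rates are per covered T, which takes account of the unequal T content of the guides. The CPM order was the reverse, with miR-101-3p below miR-128-3p in 4 of 4 DMSO libraries.

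The labelling left under PlaB was taken as the PlaB rate minus the Control rate, divided by the DMSO rate minus the Control rate. From the condition means, miR-101-3p kept 21.7% and miR-128-3p 12.5%. By experiment, miR-101-3p kept 13.7, 28.4, 28.2 and 13.9% (mean 21.1 ± 8.36, SD, n = 4). miR-128-3p kept -3.62, 16.3, 16.8 and 13.4% (mean 10.7 ± 9.66), the first value being below 0 because PlaB replicate 1 was under its Control. With this subtraction miR-101-3p had the larger share in each of the 4 experiments, in experiment 4 by less than 1 percentage point. Without it the order changed, with 23.9% for miR-101-3p and 24.5% for miR-128-3p from the condition means. By experiment the unsubtracted shares were 13.7, 31.0, 31.1 and 17.0% for miR-101-3p and 23.5, 26.6, 22.4 and 26.2% for miR-128-3p, so miR-128-3p was then higher in experiments 1 and 4. Of 127 labelled microRNAs over 100 CPM the median share was 32.2%, and 40 had a smaller share than miR-101-3p and 19 a smaller share than miR-128-3p.

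**Figure D4:**
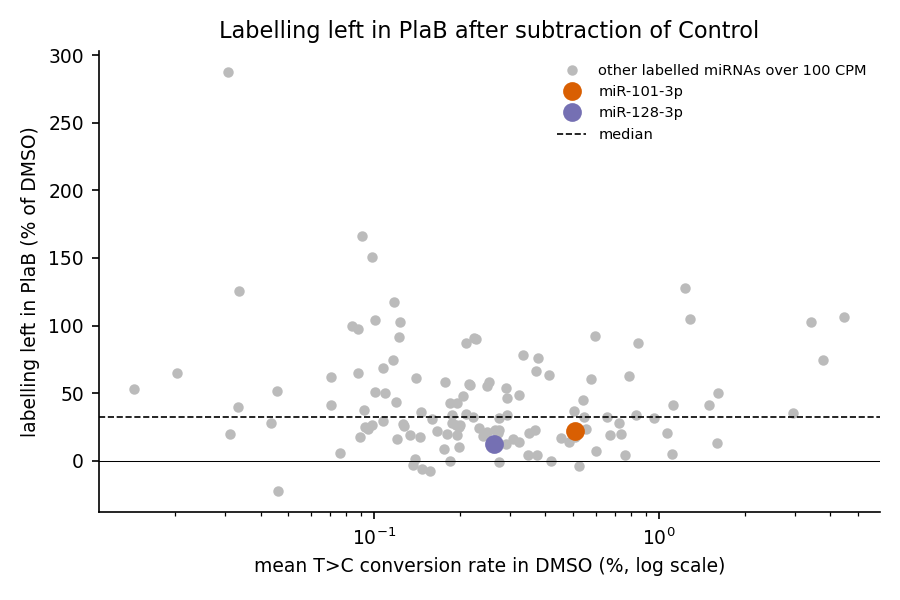
Labelling left in PlaB (% of DMSO, after subtraction of Control) against the mean T>C rate in DMSO (%, log scale) for 127 labelled microRNAs over 100 CPM. Each point is a microRNA and the dashed line is the median of 32.2%; miR-101-3p (21.7%) and miR-128-3p (12.5%) lie below it.

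The 5p strands are specific to 1 locus each and were not used to choose the guides. For the miR-101 hairpins they were nearly absent. miR-101-5p, from MIR101-1, had 36 reads over all 12 libraries and miR-101-2-5p, from MIR101-2, had 10, with no conversion in either. miR-128-2-5p, from MIR128-2, had 0 reads in every library, so the data hold no 5p strand of that hairpin. miR-128-1-5p, from MIR128-1, was the exception, and none of its reads mapped to more than 1 place.
miR-128-1-5p: cGGGGCCGuagcacugucugaga
miR-128-2-5p: gGGGGCCGauacacuguacgaga
Both have the seed GGGGCCG, shown in capitals, and are shown because the difference between them lets reads be assigned to 1 of the 2 loci.

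miR-128-1-5p was lower in both 4SU conditions than in Control. It was read at 64.2, 43.4, 61.3 and 80.8 CPM in Control, from 107, 104, 111 and 193 reads. In DMSO it was read at 29.4, 20.5, 17.2 and 25.4 CPM, from 114, 67, 35 and 50 reads. In PlaB it was read at 21.7, 8.59, 7.53 and 5.76 CPM, from 33, 17, 12 and 11 reads. Every Control library was above every DMSO and PlaB library, a pattern held by 8.94% and 8.75% of the microRNAs tested in these directions. PlaB replicate 1 overlapped DMSO. The level fell by 1.42 ± 0.34 (SE) on the log2 scale in DMSO against Control (2.67-fold lower, edgeR adjusted p = 0.0193, lower in 4 of 4 experiments). That call was lost without Control replicate 4 (adjusted p = 0.0651) and without DMSO replicate 2, 3 or 4 (adjusted p = 0.0746, 0.0744 and 0.0534). In PlaB against Control it fell by 2.54 ± 0.37 (5.80-fold lower, edgeR adjusted p = 2.59e-04). For PlaB against DMSO the log2 fold change was -1.12 ± 0.36, which did not pass (edgeR adjusted p = 0.357).

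Its conversion rate per covered T in DMSO was above that of miR-128-3p in 4 of 4 libraries. The strand's T>C rate was 0 in every Control library, 0 of 2054 positions in all, which allows up to 0.146%. The DMSO rates were 8.99, 7.46, 11.4 and 6.00%, or 89 of 1064 positions. In DMSO 34 of 114, 19 of 67, 11 of 35 and 10 of 50 reads had a conversion. The PlaB rates were 0, 2.94, 0 and 0%, or 2 of 292 positions, a pooled 0.685%. Taken against Control, the rate in DMSO was at least 57.3-fold higher, with 3 conversions over the Control group as the floor (edgeR adjusted p = 4.64e-08, higher in 4 of 4 experiments). The strand met the minimum of 10 conversions for testing only through DMSO, with 0 in Control and 2 in PlaB. The adjusted p-values of its rate are therefore not independent of that filter and are given as a description, not as support. The pooled PlaB rate was 0.0819 of the DMSO rate, with an exact 95% interval of 0.00977 to 0.305 that covers counting error only (edgeR adjusted p = 0.0144). That call was lost without PlaB replicate 1 (adjusted p = 0.0653), and the PlaB rate above Control (edgeR adjusted p = 0.0242) rests on the 2 conversions of PlaB replicate 2. By pooled DMSO rate, miR-128-1-5p ranked 2nd of 421 microRNAs with at least 500 covered positions, whose median was 0.153%, while miR-101-3p ranked 99th and miR-128-3p 168th.

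**Figure D5:**
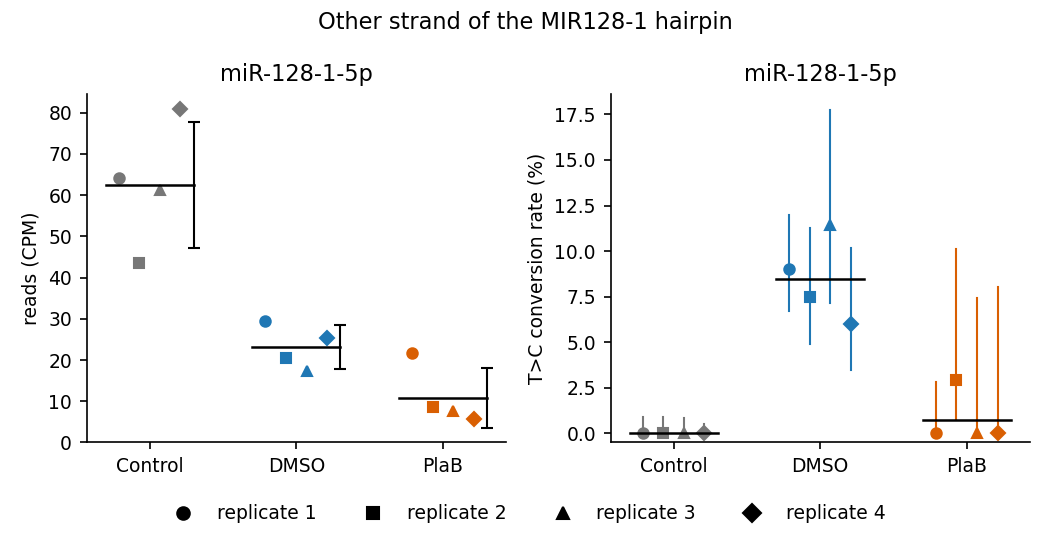
miR-128-1-5p in the 12 libraries, as read level in CPM (left, bars are SD, n = 4) and as T>C conversion rate in percent (right, bars are 95% Wilson intervals of each library). Points are libraries and lines are means; Control is highest for reads (43.4 to 80.8 CPM) and DMSO is highest for the rate (6.00 to 11.4%).

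Against the reads of miR-128-3p, miR-128-1-5p made up 13.2 ± 3.36 per 1000 reads (SD, n = 4) without 4SU. The ratio was 4.65 ± 0.918 in DMSO libraries and 2.39 ± 1.65 with PlaB. The 3p reads in this ratio come from 2 loci and include multi-mapping reads. Counting only its reads without a conversion, the strand averaged 62.4 ± 15.3 CPM in Control libraries, 16.9 ± 4.33 under DMSO and 10.6 ± 7.41 under PlaB. Unconverted reads were thus also fewer in both 4SU conditions. The authors state that a default mapping filter overrode the number of mismatches they allowed in microRNA reads. Whether reads of this strand with several conversions were lost at mapping was not tested, and its level and rate in 4SU libraries carry that limit.

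The relatives with overlapping seeds gave values beside the guides. miR-144-3p, an erythroid microRNA, had 3 reads in all. miR-27b-3p, encoded at 1 locus, had a DMSO log2 rate 2.78 ± 0.30 (SE) above Control and fell by 1.09 ± 0.28 in PlaB against DMSO (2.13-fold lower, edgeR adjusted p = 0.00107). miR-27a-3p was 3.49 ± 0.64 higher in DMSO than in Control (edgeR adjusted p = 1.36e-06). Its PlaB against DMSO log2 fold change of -0.62 ± 0.52 did not pass (edgeR adjusted p = 0.373). Neither was called for reads in any of the 3 comparisons, for which edgeR adjusted p ranged from 0.769 to 0.996. Whether either differs from miR-128-3p was not tested.

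Of 19 other microRNAs encoded at more than 1 locus, none was called for reads by edgeR or DESeq2 in any comparison. At an unadjusted edgeR p under 0.05, 3 passed in DMSO against Control, 1 in PlaB against DMSO and 0 in PlaB against Control. With the experiment as a block, miR-16-5p (log2 fold change 0.28 ± 0.07, SE) and miR-19b-3p (0.33 ± 0.08) were called higher for reads in DMSO against Control (both edgeR adjusted p = 0.0155). For conversions 17 were tested. In DMSO against Control 15 were called higher and 1 lower, where 80.8% of all 239 were called higher and 0.418% lower. In PlaB against DMSO 12 were called lower and none higher, where 36.8% of all 239 were called lower. The median log2 fold change of the 17 was -1.40 there, against -1.22 over all 239. Their SE ran from 0.16 to 1.00, against a median SE of 0.95 over all 239. A share called depends on SE and depth as well as on the change, so these shares are not like for like. The lowest log2 fold changes of the list were let-7a-5p at -2.85 ± 0.85 (SE) and let-7f-5p at -2.49 ± 1.00, both of which restrain growth genes such as RAS. Both passed (edgeR adjusted p = 0.00551 and 0.0405), and with the block let-7f-5p did not (adjusted p = 0.0544). Their DMSO rates were 0.0459 and 0.0539%, below those of miR-101-3p and miR-128-3p. Their PlaB rates of 0.00616 and 0.00937% lay below their Control means of 0.0135 and 0.0141%, so these fold changes end at the unlabelled level. In DMSO against Control let-7a-5p was called higher (edgeR adjusted p = 0.0402) and let-7f-5p was not (0.0670). The highest changes in PlaB against DMSO were miR-218-5p at 0.01 ± 0.59 and miR-7-5p at -0.11 ± 0.17. Neither of these passed (edgeR adjusted p = 0.991 and 0.638). miR-101-3p and miR-128-3p, at -2.06 and -2.02, had values between those of let-7f-5p and miR-7-5p. In PlaB against Control 13 were called higher and 1 lower, where 53.1% of all 239 were called higher and 0.418% lower. With the block miR-218-5p was no longer among those called higher (edgeR adjusted p = 0.0928).

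The microRNAs most like each guide were ranked by Pearson's r over the 12 libraries, among 158 over 100 CPM. For log2 CPM, miR-101-3p was nearest to miR-503-5p (0.70), miR-148a-3p (0.69) and miR-21-5p (0.65), and miR-128-3p to miR-17-5p (0.89), miR-502-3p (0.66) and miR-186-5p (0.66). The 2 guides had r of -0.33 with each other. For the log2 rate, miR-101-3p was nearest to miR-16-5p (0.95), miR-374a-5p (0.95) and miR-96-5p (0.95), and miR-128-3p to miR-122-5p (0.96), miR-192-5p (0.95) and miR-30d-5p (0.94). Rates all share the step between unlabelled and labelled libraries, and the median r was 0.73 for miR-101-3p and 0.74 for miR-128-3p. The points share library, depth and condition, so these values are descriptions.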

How the data were processed

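Small RNA libraries of 12 Huh7 samples were analysed. The authors trimmed reads with Trim Galore and ran nf-core SLAMseq, in which SLAM-DUNK mapped reads to GRCh38 and counted mature miRBase features, keeping multi-mapping reads. The deposited tables hold the authors' counts (reads, covered T positions, T>C conversions, converted and multi-mapping reads), CPM and T>C rate as a fraction, printed here in percent. Reads were tested with edgeR 4.0.16 in R 4.3.3 (TMM, filterByExpr, 537 microRNAs) and conversions with the log of covered T as offset (at least 10 conversions, 239 microRNAs), with quasi-likelihood tests, Benjamini-Hochberg adjustment and a threshold of 0.05. SE is the absolute log2 fold change over the square root of F. DESeq2 1.42.0 and other filters, libraries and blocks were alternatives. Fits were tested on simulated data. There the conversion fit called 20% of true log2 changes of -1, 40% of 1 and 70% of -2 or 2 (10 microRNAs each). The read fit called 76% of -1, 94% of 1, 96% of -2 and 100% of 2. Of unchanged microRNAs, 0.503% were called for conversions and 1.78% for reads. A conversion change that did not pass may thus still be present. Intervals and floors of 3 counts cover counting error only, since reads carried no molecular identifiers. Libraries of the same replicate number, from 1 experiment per the methods, had correlated deviations of log2 CPM (r 0.208 to 0.829). For different numbers r was -0.547 to 0.322. Deviations of the log2 conversion rate had r of -0.130 to 0.261 for the same number and -0.167 to 0.217 for different numbers. Numbers thus pair the samples by the methods and by log2 CPM, while the rates showed no such pairing. Named microRNAs are the pair, their other strands, seed relatives, the 2 extremes at each end of the multi-locus list and the 3 most alike. Members and lists were chosen with earlier results of these data known.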

Additional observations from a re-analysis of the deposited data

Results flagged for a closer look

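Of 31 groups of 4 libraries examined, 3 held a library far from the others. Chance gives about 1 in 20 for continuous values, which does not apply to miR-128-1-5p, whose other PlaB libraries were all at 0. miR-101-3p was read at 3291 CPM in DMSO replicate 1, against 4148 to 4213 CPM in the other DMSO libraries. miR-128-1-5p had a T>C rate of 2.94% in PlaB replicate 2, against 0 in the other PlaB libraries. In the same library 11.8% of its reads had a conversion, which was 2 of 17 reads and rests on the same conversions.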

How the results depend on the processing

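The guides' conversion changes kept their direction in all 20 alternatives. Their log2 fold changes in PlaB against DMSO ranged from -2.29 to -1.87 for miR-101-3p and from -2.26 to -1.85 for miR-128-3p. Cell material was 1 line, and the 5p strands rest on few reads. With reads that map to 1 place, an alternative chosen after seeing the data, the read log2 fold change of miR-101-3p was 0.10 in DMSO against Control, -0.83 in PlaB against DMSO and -0.73 in PlaB against Control. That of miR-128-3p in DMSO against Control was 0.20. Without subtraction of Control, miR-128-3p kept 24.5% and miR-101-3p 23.9% in PlaB, which turns their order. The cause of these shifts was not tested.

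Reads called in DMSO against Control numbered 32. They were 8 over 100 CPM, 60 with the replicate block, 17 without DMSO replicates 1 and 2, and 15 to 35 with 1 library left out. Reads called in PlaB against DMSO numbered 2. They were 0 with RLE factors, 6 with DESeq2, 1 over 100 CPM, 5 with no filter, 0 in the 8 libraries alone, 6 with the replicate block, 0 without DMSO replicates 1 and 2, 0 with reads of 1 place, and 0 to 1 with 1 library left out. At an unadjusted edgeR p under 0.05, 30 passed. Reads called in PlaB against Control were 6 over 100 CPM. Among named microRNAs, the block changed no call other than those given for miR-16-5p, miR-19b-3p, let-7f-5p and miR-218-5p.

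Conversions called in DMSO against Control were 194 of 239 tested, 102 of 104 with filterByExpr and 127 of 158 over 100 CPM. In PlaB against Control they were 128 of 239, 85 of 104 and 83 of 158. In PlaB against DMSO they were 89 of 239, and 50 without DMSO replicates 1 and 2.

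For miR-128-1-5p reads in DMSO against Control, log2 fold changes with 1 library left out ranged from -1.57 to -1.28, and without DMSO replicates 1 and 2 the value was -1.50 (edgeR adjusted p = 0.131). It passed in 14 of 19 alternatives. The conversion values that follow share the filter limit given above for this strand. Its conversions in PlaB against DMSO ranged from -7.69 to -2.78, and were -3.48 (edgeR adjusted p = 0.106) without DMSO replicates 1 and 2. In PlaB against Control they ranged from 0 to 4.88, and were 4.21 (edgeR adjusted p = 0.0554) in the 8 libraries alone. All PlaB conversions of this strand were in PlaB replicate 2. Without that library the PlaB count is 0, so its fold changes there are set by the fit and not by counts.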
